A study of Mus musculus with 6 samples.

Results

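Of the 21485 genes that all 6 samples share, 72 are cytokine genes of 3 kinds: chemokines of the CC and CXC families, interleukins, and colony-stimulating factors, with Lif and Tnf. They were chosen by name alone: symbols made of Ccl, Cxcl or Il and a number (for Il also with a letter a, b, c, d or f), plus Csf1, Csf2, Csf3, Lif and Tnf, in every sample's gene list by Ensembl identifier. Among them were 19 CC chemokines, 12 CXC chemokines, 36 interleukins and 3 colony-stimulating factors. They were measured in muscle-derived stem/progenitor cells (MDSPCs), slowly adhering mouse muscle cells enriched by serial preplating and grown in a proliferation medium with fetal bovine and horse serum. The study compared 3 young with 3 old populations, labelled as biological replicates, by droplet-based 3′ single-cell RNA sequencing. The labels used here give no age, strain, sex or passage number, and no treatment distinguished the groups. Whether each population came from a separate mouse is not given in the sources used here, so p-values measure only the spread between these samples.

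Chemokines are small secreted proteins that guide migrating cells through receptors of the G-protein-coupled type. Interleukins and colony-stimulating factors signal through cell-surface receptors of several kinds and direct the growth, survival and activation of leukocytes. In injured muscle, resident cells and leukocytes exchange such signals during repair, and senescent cells of many tissues are known to secrete several of them. Transcription of many cytokine genes is driven by the NF-kappaB and interferon pathways.

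The 61673 kept cells held 133683424 to 196258384 unique molecular identifiers (UMIs) per sample, where 1 UMI stands for 1 captured RNA molecule. The cytokine genes took up 0.0209% to 0.0481% of them. Young replicate 1 and old replicate 1 were counted on a shorter gene list than the other 4 samples, so the list entered the comparison of age as a term. Each pair of libraries shared only 24 to 41 cell barcodes. Old replicate 2 stood apart by whole chromosomes: the median gene on chromosome X was 0.69, on chromosome 11 0.35, on chromosome 13 0.33 and on chromosome 5 0.26 above the mean of the samples in log2 units. In young replicate 3 the median of chromosome 6 was 0.41 above it. The 10 myogenic marker genes summed to 341 to 3541 CPM in every sample (CPM is a gene's UMI count scaled to a common library total), while 6 T and NK cell markers summed to at most 0.42 CPM, 4 B cell markers to at most 0.56 CPM and 5 mast cell markers to at most 0.08 CPM. Macrophage and monocyte markers summed to 6.79 to 31.6 CPM, with Tyrobp and C1qb at 0 in every sample. Of 6 endothelial markers Tek alone was raised, at 58.9 CPM in young replicate 2 and at most 0.40 CPM elsewhere, while the other 5 stayed at or below 1.011 CPM in every sample.

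The cultures expressed a short list of these genes. Of the 72, 8 had no UMI in any sample (Ccl24, Il3, Il9, Il13, Il17a, Il21, Il36a and Il36b), and a count of 0 allows a level of up to 0.0155 to 0.0225 CPM in a sample (3 counts of its total). Another 39 were detected but stayed under 1 CPM in every sample, among them Il6, with 158 UMIs in all, Csf2 with 47, Csf3 with 33 and Tnf with 2, both in old replicate 2. At least 1 sample reached 1 CPM for 25 genes, and 7 did so in all 6 samples (Csf1, Cxcl12, Ccl2, Ccl5, Il34, Ccl25 and Ccl7), where 47.1% of all shared genes did. Counting of 3′ ends does not scale with gene length, so levels were set side by side between genes; overlapping genes and the handling of introns, which is not given in the sources used here, can still affect a gene's count.

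Csf1, the growth factor of macrophages and their precursors, was the highest cytokine gene in 5 of the 6 samples. Its level was 147, 72.0 and 98.8 CPM in young replicates 1, 2 and 3 and 198, 100.3 and 95.3 CPM in old replicates 1, 2 and 3. The groups overlapped, and the highest sample exceeded the lowest by 2.74 times, a narrow range for this family. Cxcl12, the chemokine that retains stem and progenitor cells in their niche through the receptor Cxcr4, measured 78.5, 37.5 and 312 CPM in the young samples against 37.3, 38.1 and 27.4 CPM in the old ones. Young replicate 3 stood far above the rest, and Cxcl12 (chr6:117168535-117181367 of GRCm38) lies on chromosome 6, whose median was raised by 0.41 in log2 units in that sample. Csf1 and Cxcl12 together made up 49.8% to 84.3% of all cytokine UMIs of a sample.

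The monocyte attractants Ccl2 and Ccl7 are neighbours on chromosome 11 (chr11:82035571-82037453 and chr11:82045712-82047525). Ccl2 was measured at 42.5, 2.16 and 17.1 CPM in the young replicates and 52.5, 23.4 and 14.9 CPM in the old replicates, lowest in young replicate 2. Gm17268 overlaps Ccl2 on the opposite strand. Ccl7 was at 7.70, 1.88 and 1.49 CPM in the young samples against 10.3, 18.99 and 8.24 CPM in the old ones, where every old value exceeded every young one. Ccl5, which attracts T cells and monocytes, was at 15.1, 11.8 and 2.22 CPM in the young replicates and 63.6, 6.41 and 11.5 CPM in the old replicates, with old replicate 1 apart from the other 5. Cxcl1, a neutrophil attractant, was at 4.38, 2.44 and 7.44 CPM in the young samples against 15.9, 6.07 and 0.91 CPM in the old ones. Cxcl10, an interferon-induced attractant of T cells, was at 2.97, 0.92 and 0.23 CPM in the young replicates and 8.73, 1.35 and 1.39 CPM in the old replicates. For Ccl5, Cxcl1 and Cxcl10 the highest sample was old replicate 1, and the groups overlapped for all 3. For Csf1, Ccl2, Ccl5, Cxcl10 and Cxcl16 the 2 highest samples were young replicate 1 and old replicate 1, those counted on the shorter gene list. This did not hold for Cxcl12, Il34, Ccl25, Il18, Ccl7, Cxcl1, Lif or Il33. Whether levels follow the gene list or its processing was not tested.

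Among the interleukins only Il34, Il18 and Il33 reached 5 CPM in any sample. Il34, the second ligand of the Csf1 receptor, was at 17.0, 27.4 and 11.2 CPM in the young samples against 28.2, 11.6 and 8.71 CPM in the old ones. Il18, an inflammasome-processed cytokine, varied by 59.8 times between samples: it was at 2.72, 26.7 and 0.51 CPM in the young replicates and 4.13, 30.4 and 9.0 CPM in the old replicates. Its 2 highest samples, young replicate 2 and old replicate 2, belong to different groups. Il33, an alarmin stored in the nucleus, was at 0.89, 6.03 and 5.61 CPM in the young samples against 1.43, 0.20 and 0.55 CPM in the old ones. Lif, a cytokine of the interleukin-6 family that promotes myoblast proliferation, was at 1.39, 0.16 and 0.70 CPM in the young replicates and 4.98, 7.56 and 1.60 CPM in the old replicates, with no overlap. Ccl25, best known as a thymic chemokine, was the most even CC chemokine, at 9.48, 20.4 and 18.9 CPM in the young samples against 14.3, 19.7 and 16.1 CPM in the old ones. Elavl1 overlaps Ccl25 on the opposite strand, and whether the authors' counting used strand is not given in the sources used here. Cxcl16 ranged from 0.05 CPM in young replicate 2 to 5.99 CPM in young replicate 1. The levels of Ccl9, Il7, Ccl8, Il1b and Il12a were below 5 CPM throughout.

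**Figure D1:**
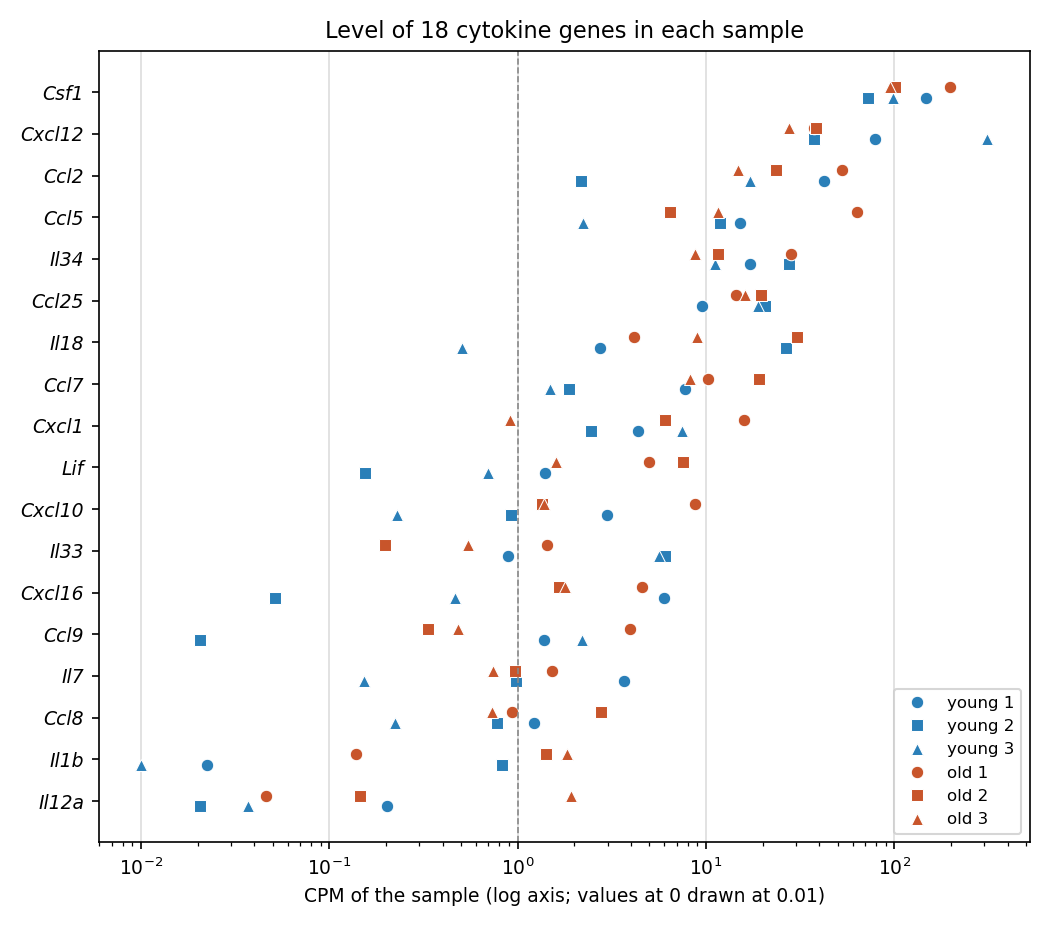
CPM of 18 cytokine genes (log axis) in the 3 young (blue) and 3 old (red) samples, 1 point per sample; the dashed line marks 1 CPM and the 1 value at 0, Il1b in young replicate 3, is drawn at 0.01. Csf1 lies between 72.0 and 198 CPM in every sample, Cxcl12 of young replicate 3 stands apart at 312 CPM, and young and old points are mixed in most rows but not for Ccl7 and Lif.

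The receptors of these ligands ranged from undetected to well expressed in the same cultures. Their levels are sums over the cells of a sample, and receptor and ligand were not counted together in single cells. Of 70 receptor genes, 30 reached 1 CPM in any sample and Ccr2, the main receptor of Ccl2 and Ccl7, was at 0 in all 6, as were Ccr6, Ccr8 and Il10ra. Csf1r, which binds Csf1 and Il34, was at 0.35, 3.14 and 0.19 CPM in the young replicates and 0.20, 0.05 and 0.05 CPM in the old replicates. Chosen after their values were seen, as receptors of some of the ligands above, Ccr9 (for Ccl25) was at most 0.26 CPM, Cxcr2 (for Cxcl1) at most 0.77 CPM and Cxcr3 (for Cxcl10) at most 0.11 CPM. The receptors of Cxcl12 were higher: the scavenging receptor Ackr3 was at 6.63, 38.9 and 11.4 CPM in the young samples against 24.8, 36.0 and 17.0 CPM in the old ones, and Cxcr4 ranged from 0.77 CPM in young replicate 3, the sample with the most Cxcl12, to 38.7 CPM in young replicate 2. Il6st, the signalling chain shared by Lif and interleukin-6, was at 15.9 to 39.6 CPM, Lifr, the other chain of the Lif receptor, at 3.65 to 18.6 CPM, and Tnfrsf1a, the TNF receptor, at 17.2 to 41.3 CPM. Il1r1, the receptor of Il1b, ranged from 2.54 to 84.7 CPM. Of the receptor chains of Il18, Il18rap was at 1.49 to 27.3 CPM, while Il18r1 was at most 0.02 CPM.

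Promoter sequences of 3 of the genes are printed because the results below turn on how Csf1 and Cxcl1 accompany Ccl2, and on Cxcl10. Promoters from RefSeq (GRCm38.p6) were found for 49 of the 72 genes, and no entry was found for Ccl2, Ccl5, Ccl7, Il34, Cxcl16 and Il7. The 250 bases before the transcription start are given 5′ to 3′ on the strand of the gene. Capitals mark matches on either strand to the NF-kappaB consensus site, and in Cxcl10 also to the consensus of the interferon-stimulated response element (ISRE). Of 32851 promoter windows of this length, 3.90% held the first and 0.642% the second, and no match to one overlaps a match to the other.
Csf1 (chr3:107760470-107760719, minus strand): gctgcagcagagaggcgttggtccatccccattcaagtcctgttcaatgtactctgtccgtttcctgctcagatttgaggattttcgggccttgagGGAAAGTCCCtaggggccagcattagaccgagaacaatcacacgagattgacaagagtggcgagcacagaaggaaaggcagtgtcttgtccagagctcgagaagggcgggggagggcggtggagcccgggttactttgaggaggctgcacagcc
Cxcl1 (chr5:90890995-90891244, plus strand): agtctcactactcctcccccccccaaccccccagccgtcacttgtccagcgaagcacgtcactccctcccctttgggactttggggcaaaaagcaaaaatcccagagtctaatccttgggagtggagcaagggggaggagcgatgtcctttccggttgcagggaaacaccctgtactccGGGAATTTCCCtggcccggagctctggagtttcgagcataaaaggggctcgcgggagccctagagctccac
Cxcl10 (chr5:92348890-92349139, minus strand): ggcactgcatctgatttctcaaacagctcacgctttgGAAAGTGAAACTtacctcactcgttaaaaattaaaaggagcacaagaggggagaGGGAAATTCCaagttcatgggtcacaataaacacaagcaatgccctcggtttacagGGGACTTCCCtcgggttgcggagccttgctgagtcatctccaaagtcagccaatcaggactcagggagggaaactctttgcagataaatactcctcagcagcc
Cxcl1 held an NF-kappaB match that reads on both strands, 71 bases before the start on the plus strand and 70 on the minus strand, and Csf1 held 1, beginning 154 bases before it. Cxcl10 held 2 NF-kappaB matches, at 159 and 103 bases before the start, and 1 ISRE match at 213 bases. The NF-kappaB consensus occurred in 10 of the 49 genes with a promoter, and Cxcl10 was the 1 gene of the 49 with an ISRE match. A gene counted if any of its promoter entries held a match, whereas the shares above are of single windows, so they are not directly comparable. A match is a description of the letters and not evidence of a bound site.

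Ccl5 came from few cells. With every cell thinned to 5000 UMIs, 4.53% of cells in old replicate 1 had a Ccl5 UMI (95% exact binomial interval 4.13% to 4.96%, counting error only), where 25.3% would have had one if the same UMIs had been spread evenly over cells. In the 6 samples the share was 1.78%, 1.80%, 0.67%, 4.53%, 0.80% and 0.96%, in the order young replicates 1 to 3 and old replicates 1 to 3, which was 0.16 to 0.60 of the share under even spread. Single cells held up to 354 Ccl5 UMIs. Ccl2, Ccl7, Cxcl1 and Cxcl10 were also uneven: the share of cells with a UMI was 0.47 to 0.62 of the even share for Ccl2, 0.61 to 0.81 for Ccl7, 0.56 to 0.83 for Cxcl1 and 0.20 to 0.92 for Cxcl10. Csf1 was spread broadly, with 26.7% to 53.9% of thinned cells holding a UMI and 0.85 to 0.93 of the even share. Cxcl12 was found in 7.86% to 69.7% of cells, at 0.89 to 0.93 of the even share in 5 samples and 0.81 in old replicate 3, where the 1% of cells with the most held 37.6% of its UMIs. Il34 and Ccl25 came within 0.94 to 1.00 of the even share in every sample. No cell type that should lack these genes was identified in the cultures, so the share that free RNA in the droplets gives was not measured. Before thinning, a Ccl5 UMI was seen in 1.18% to 7.31% of cells.

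**Figure D2:**
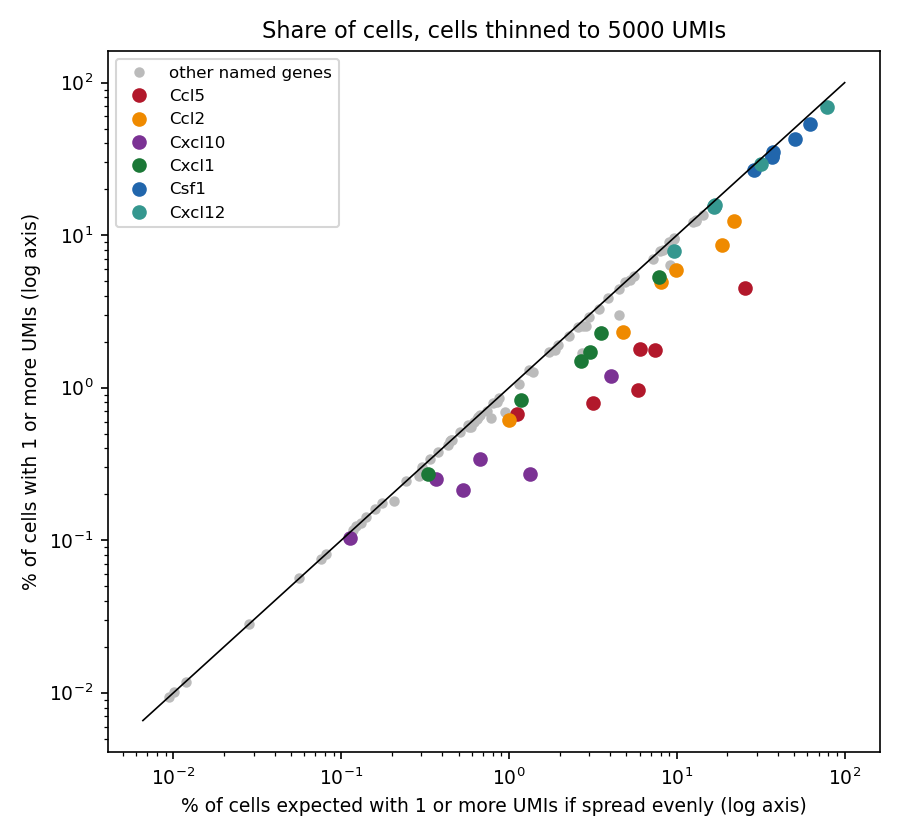
Percent of cells with 1 or more UMIs after thinning to 5000 UMIs per cell, against the percent expected if the sample's UMIs of that gene were spread evenly over cells (both log axes), 1 point per gene and sample; the line marks equality. Csf1 and, apart from old replicate 3 at 0.81, Cxcl12 lie at 0.85 to 0.93 of the expected share, while the Ccl5 points lie well below it, at 0.16 to 0.60 of the expected share.

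Cells with 10 or more Ccl5 UMIs held more Ifit1, Isg15, Cxcl10 and other interferon-induced transcripts than cells with none. They numbered 33, 59 and 3 in young replicates 1 to 3 and 199, 29 and 54 in old replicates 1 to 3, and in the 5 samples with at least 20 such cells they held 71.8% to 87.0% of all Ccl5 UMIs. Genes with at least 100 UMIs in these cells that were higher than in Ccl5-negative cells of the same sample in all 5 samples were ranked by their pooled ratio; Ifit1, Oasl1, Cxcl10, Isg15, Ifih1 and Rsad2 led the ranking. The limit of 100 UMIs applied to the Ccl5-high cells alone, which favours genes that are high there, so the ranking is a description. Ifit1, an interferon-induced inhibitor of viral translation, averaged 96.1 CPM in the Ccl5-high cells (35.8 to 255 CPM) against 0.45 CPM in the negative cells (0.29 to 0.59 CPM). Isg15, an interferon-induced ubiquitin-like protein, averaged 96.0 CPM against 0.97 CPM. Cxcl10 was at 324, 36.7, 137, 24.0 and 46.1 CPM in the Ccl5-high cells of young replicates 1 and 2 and old replicates 1 to 3, and at 0.57 to 2.46 CPM in the negative cells, so the ranges of the cell groups did not meet. A list of 11 interferon-stimulated genes, chosen after the data were seen and holding 4 of these 6 leading genes (Ifit1, Oasl1, Isg15 and Rsad2), summed to 254 to 520 CPM in the Ccl5-high and 50.8 to 107 CPM in the negative cells. Of 30 cytokine genes with 100 or more UMIs over both cell groups, 5 were higher in all 5 samples (Cxcl10, Ccl2, Ccl7, Cxcl1 and Lif), where 2.61% of 14039 genes were. Cxcl1 in old replicate 3 and Lif in young replicate 2 rested on 1 UMI each in the Ccl5-high cells. Csf1 was higher in 3 of 5 samples and Il34 in 2 of 5.

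Leukocyte markers were counted in the same cells. The 6 T and NK cell and 5 mast cell markers had no UMI in the Ccl5-high cells, the 4 B cell markers had 2, and the 5 neutrophil markers had 9, at up to 2.19 CPM against up to 2.17 CPM in the negative cells. The 10 macrophage and monocyte markers summed to 6.59 to 36.2 CPM in the Ccl5-high and 6.78 to 31.5 CPM in the negative cells, higher in 2 of 5 samples. Of these 10, Ptprc, Adgre1, Tyrobp, C1qa and C1qb were at 0 in the Ccl5-high cells and the others were expressed. Myogenic markers summed to 303 to 2820 CPM in the Ccl5-high and 346 to 3552 CPM in the negative cells, lower in the Ccl5-high cells of all 5 samples. In each of the 5 samples the Ccl5-high cells were the deeper ones, by median 16366 against 13392 UMIs in old replicate 1, and more of them were cycling. Cycling cells held 2 or more UMIs over Mki67, Top2a, Cdk1 and Cenpf, a limit that deeper cells reach more easily. It was applied without thinning, and the part of depth in this share was not tested. These comparisons describe cells picked by their Ccl5 count, and no test was made.

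Cells with 10 or more Ccl2 UMIs held more Ccl7, Cxcl10 and Cxcl1 than cells with none. Young replicates 1 to 3 had 111, 7 and 53 of them and old replicates 1 to 3 had 167, 74 and 61, and young replicate 2 with its 7 cells was left out of the description. Ccl7 was at 211, 43.8, 149, 289 and 285 CPM in the Ccl2-high cells of young replicates 1 and 3 and old replicates 1 to 3, and at 0.68 to 8.54 CPM in the Ccl2-negative cells. Cxcl1 was at 129, 246, 111, 222 and 22.1 CPM in the Ccl2-high against 0.38 to 10.3 CPM in the negative cells. Cxcl10 was at 56.4, 10.3, 148, 19.6 and 16.1 CPM in the Ccl2-high and 0.10 to 3.70 CPM in the negative cells. Of 28 cytokine genes with 100 or more UMIs over both cell groups, 8 were higher in all 5 samples (these 3, Ccl5, Cxcl16, Ccl9, Il7 and Csf1), where 4.06% of 13806 genes were. Cxcl16 and Il7 rested on 1 UMI each in the Ccl2-high cells of young replicate 3. Csf1 averaged 232 CPM against 121 CPM. The NF-kappaB and inflammatory response list (28 genes) summed to 1343 to 1693 CPM in the Ccl2-high and 853 to 1177 CPM in the negative cells, higher in 5 of 5 samples, whereas in the Ccl5-high cells it was higher in 3 of 5. The interferon-stimulated list was higher in 4 of 5. Ranked in the same way, Ccl7, Cxcl10, Gm17268, which overlaps Ccl2, and Cxcl1 led the genes. Il1rl1, the Il33 receptor, was at 99.4 CPM against 2.10 CPM in old replicate 3, but at 1.00 to 10.5 CPM against 0.60 to 6.51 CPM in the other 4 samples. Whether the profiles of Ccl5-high and Ccl2-high cells differ was not tested.

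In the Ccl2-high cells the macrophage and monocyte markers summed to 24.1 to 38.7 CPM, against 5.95 to 31.3 CPM in the negative cells, higher in 5 of 5 samples; Adgre1, Tyrobp, C1qa and C1qb were at 0 in the Ccl2-high cells, and the part of this list in the result was not tested. The 5 neutrophil markers had 26 UMIs there, at up to 6.48 CPM against up to 1.74 CPM in the negative cells, the 6 T and NK cell markers had 4 and the B and mast cell markers 0. Fibro-adipogenic markers summed to 231 to 444 CPM against 203 to 347 CPM, higher in 4 of 5 samples. Myogenic markers summed to 232 to 801 CPM against 363 to 3714 CPM, higher in 1 of 5 samples. The Ccl2-high cells were deeper in all 5 samples, most of all in old replicate 3, with a median of 36399 UMIs against 12884, and more of them were cycling in all 5, at 64.0% to 88.7% against 40.0% to 84.1%. These cycling shares, too, were taken without thinning, and the part of depth in them was not tested. Droplets with more than 1 cell were not removed, and their part was not tested.

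Pairs of genes were also counted in thinned cells. Of 53 gene pairs with at least 3 expected cells in 3 or more samples, 13 were found together more often than independence predicts in every sample measured and 1 less often. Some of the 13 barely exceeded 1, with a lowest ratio of 1.006 for Cxcl12 and Il33 and 1.015 for Cxcl12 and Ccl2. The share among pairs of other genes was not measured. Ccl2 and Ccl7 were detected together in 472 cells where 94.3 were expected, a ratio of 3.39 to 14.0 over 5 samples. For Ccl2 and Cxcl1 the ratio was 2.43 to 5.51 over 4 samples, for Ccl2 and Ccl5 1.69 to 3.75 over 4 samples, and for Csf1 and Ccl2 1.11 to 1.38 over 6 samples. Ccl2 and Ccl25 showed no such excess, at 0.45 to 1.06. These ratios are descriptions within samples, since the cells of a sample are not replicates.

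**Figure D3:**
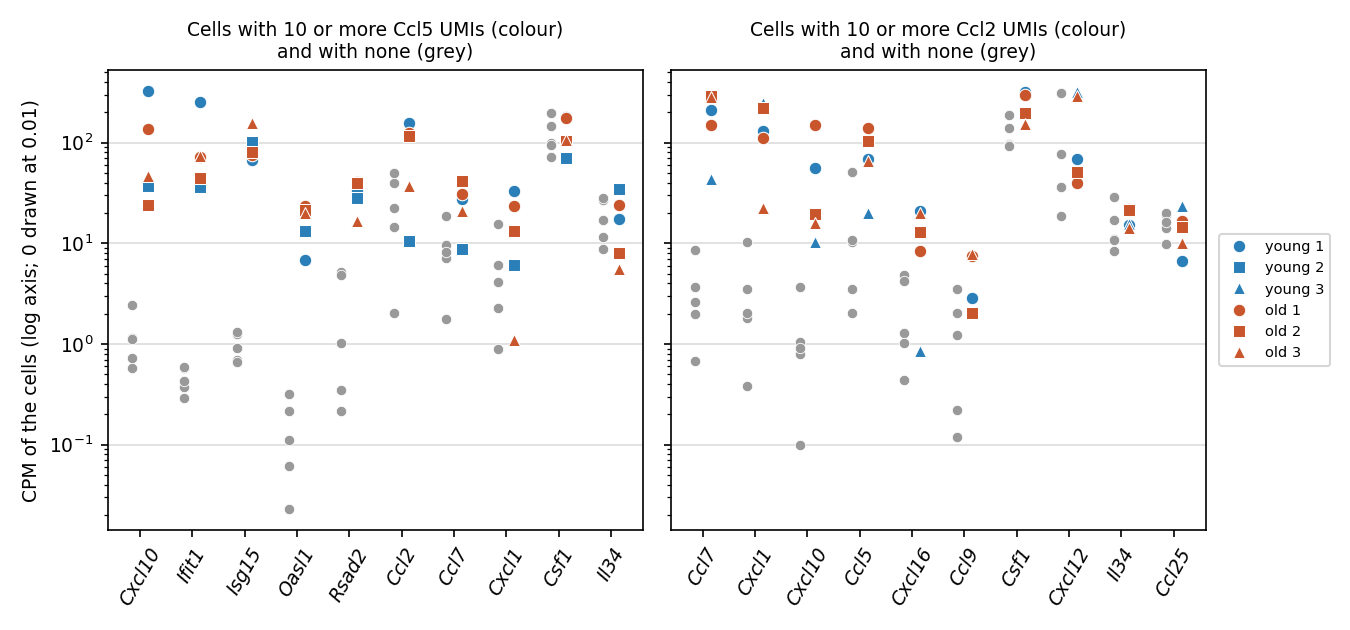
CPM (log axis) of 10 genes in cells with 10 or more UMIs of Ccl5 (left) or Ccl2 (right), coloured by sample, and in cells with none (grey), 1 point per sample with at least 20 high cells. On the left Cxcl10, Ifit1, Isg15, Oasl1 and Rsad2 separate the cell groups, with Ifit1 at 35.8 to 255 CPM against 0.29 to 0.59 CPM; on the right Ccl7, Cxcl1 and Cxcl10 do, and Csf1, Il34 and Ccl25 differ far less.

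The comparison of old with young populations asked which of these genes differ with the age label. No cytokine gene passed the test: of 35 tested, 0 were called higher and 0 lower, where 0.00689% and 0.0% of the 14512 genes tested were called higher and lower. At an unadjusted p under 0.05 there were 6 of the 35 cytokine genes and 512 of the 14512 genes, and DESeq2 called 0 cytokine genes of the 219 genes it called. The lowest adjusted p of a cytokine gene was 1.00 with edgeR. The median fold change was 0.48 on the log2 scale over the 35 cytokine genes and -0.01 over all genes tested, with 23 above 0 and 12 below. The other 37 did not pass the filter on low counts.

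Lif and Ccl7 were the 2 cytokine genes above 1 CPM whose old values all exceeded the young ones. Lif averaged 0.75 ± 0.62 CPM in the young and 4.71 ± 2.99 CPM in the old samples (SD, n = 3 each), a log2 fold change of 2.82 ± 0.98 (SE, edgeR unadjusted p = 0.0302). With samples left out in turn the fold change of Lif ranged from 1.81, without old replicate 2, to 3.48. Ccl7 averaged 3.69 ± 3.48 CPM in the young and 12.5 ± 5.72 CPM in the old samples, a log2 fold change of 2.11 ± 0.79 (edgeR unadjusted p = 0.0390), and 1.48 without old replicate 2 and 3.04 without either replicate 1. Between the pair of samples on the shorter list the log2 ratio of Ccl7 was 0.41, and between the means of the 4 samples on the longer list 3.01; for Lif these were 1.84 and 3.42. Cxcl3, a neutrophil attractant, also did not overlap, with 0, 4 and 2 UMIs in young replicates 1 to 3 against 14, 13 and 43 in old replicates 1 to 3 (edgeR unadjusted p = 0.0110). Old values exceeded young ones without overlap for 3 of the 35 cytokine genes and for 5.02% of all genes tested, and fell below them for 0 of 35 and 0.903%. Both Lif and Ccl7 lie on chromosome 11, whose median was 0.35 higher in old replicate 2, the sample with the highest value of each; with the chromosome shifts taken out the log2 fold change was 2.64 for Lif and 1.95 for Ccl7, and neither passed the test.

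Cxcl12 had the largest negative fold change after Il33, at -2.03 ± 0.74 on the log2 scale (edgeR unadjusted p = 0.0365, adjusted p = 1.00). It rests on young replicate 3: without that sample it was -0.76, and with the chromosome shifts taken out -1.71. In thinned cells a Cxcl12 UMI was found in 69.7% of cells of young replicate 3 and in 7.86% to 29.2% of cells elsewhere. Il33 averaged 4.18 ± 2.85 CPM in the young and 0.73 ± 0.64 CPM in the old samples, with a log2 fold change of -2.68 ± 1.21. With samples left out in turn this ranged from -3.87 to -1.64, the latter without old replicate 2. Il33 in old replicate 1 was above young replicate 1. Csf1 averaged 106 ± 37.7 CPM in the young and 131 ± 57.6 CPM in the old samples, a log2 fold change of 0.19 ± 0.21, and Ccl2 averaged 20.6 ± 20.4 CPM and 30.3 ± 19.8 CPM. Of the receptor genes 46 were tested, of the NF-kappaB and inflammatory list 27 and of the list of other cytokines 19, and 0 were called by age.

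**Figure D4:**
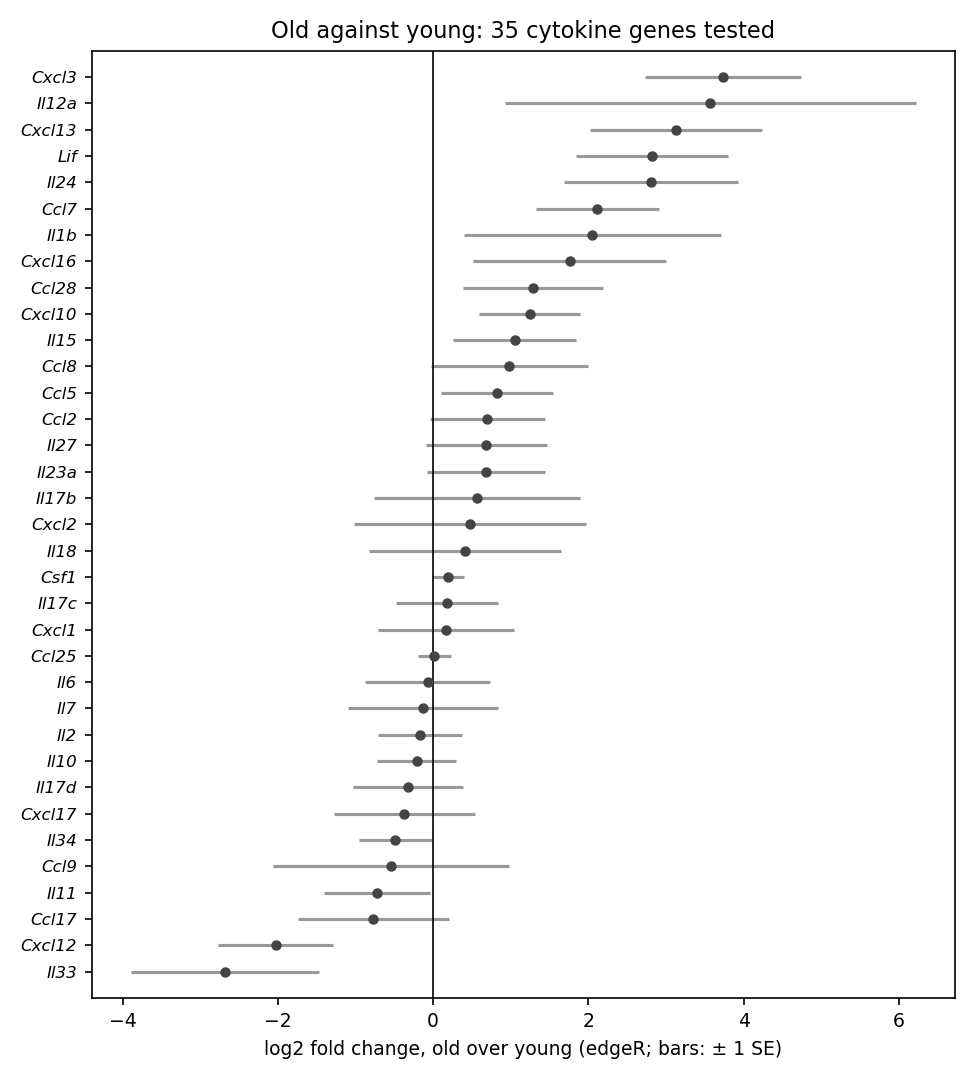
Log2 fold change of old over young with its standard error (bars, ± 1 SE; edgeR) for the 35 cytokine genes tested, ordered by fold change. No gene passed an adjusted p of 0.05; Csf1 and Ccl25 have short bars around 0, whereas Lif at 2.82 and Cxcl12 at -2.03 have wide ones.

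Cells expressing Myog had lower levels of several chemokines. Cells with 2 or more UMIs of Myog, the myogenic regulator that marks committed myocytes, were compared with cells that had none within 5 samples; old replicate 1 was left out, with 47 Myog-positive cells. Of 25 cytokine genes tested, 9 fell and 2 rose, or 36.0% and 8.0%, where 17.3% and 14.3% of the 13387 genes tested were called lower and higher. The median log2 fold change was -0.48 over the cytokine genes and -0.06 over all genes. Csf1 fell from 148, 80.1, 99.3, 113 and 128 CPM in Myog-negative cells of young replicates 1 to 3 and old replicates 2 and 3 to 92.2, 42.2, 85.0, 44.1 and 59.7 CPM in Myog-positive cells (log2 fold change -0.81 ± 0.13 SE, edgeR adjusted p = 0.0079). It was lower in 5 of 5 samples. Ccl7 fell by 1.36 ± 0.19 (adjusted p = 0.0045), from 7.84, 2.17, 1.53, 22.1 and 10.6 CPM to 2.83, 0.91, 0.84, 5.03 and 5.03 CPM, also in every sample. Cxcl12 fell by 1.16 ± 0.21 (adjusted p = 0.0118) and was lower in 5 of 5 samples. The calls of Csf1, Ccl7, Cxcl12 and Il1b held under all 10 alternatives run for this comparison. With positive cells taken at 1 or more UMIs the fold change was -0.81 for Ccl7 and -0.75 for Cxcl12, and without the deepest cells it was -2.33 for Ccl7.

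The other 6 that fell were Ccl2, Ccl9, Cxcl16, Il7, Il18 and Il34. Ccl2 fell by 1.19 ± 0.27 (adjusted p = 0.0208) but was equal in both classes of young replicate 3, at 16.7 CPM, and its call was lost without young replicate 2, old replicate 2 or old replicate 3 and with positive cells taken at 1 or more UMIs (-0.79). Without the deepest cells it was -2.13. For Cxcl16 and Ccl9 the call was lost without old replicate 2 or 3, for Ccl9 also without the deepest cells, for Il7 without young replicate 2 or old replicate 2 or 3, and for Il34 without old replicate 3. Over the 10 alternatives the log2 fold change was -1.41 to -0.91 for Cxcl16, -2.04 to -1.12 for Ccl9 and -1.69 to -1.05 for Il7. Il18 lost it in 6 of 10 alternatives, among them DESeq2, every removal of a sample but that of young replicate 3, and a class limit of 1 UMI. Without old replicate 3, the sample with 5569 of the Myog-positive cells, 5 cytokine genes were called in all, 3 lower and 2 higher, and without old replicate 2 there were 6. Calls over all genes also varied widely with samples left out, by the range given in the section on processing. Whether the cytokine genes changed more than other genes was not tested.

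Il1b went the other way. This proinflammatory interleukin was at 0.77, 3.15, 0, 7.03 and 3.43 CPM in the Myog-positive cells of young replicates 1 to 3 and old replicates 2 and 3, and at 0, 0.24, 0, 0.29 and 0.42 CPM in the Myog-negative cells. It rose by 4.00 ± 0.46 on the log2 scale (edgeR adjusted p = 0.0040). Young replicate 3 had no Il1b UMI, and young replicate 1 had 3. In thinned cells an Il1b UMI was found in 2.67% of Myog-positive cells of old replicate 2 (exact interval 1.87% to 3.69%) and 0.29% of Myog-negative cells (0.17% to 0.45%). Il12a, which encodes a chain of interleukin-12, rose by 2.45 ± 0.59 (adjusted p = 0.0208), a call lost without young replicate 1 or old replicate 2. In the same order of samples it had 8, 2, 4, 16 and 224 UMIs in Myog-positive and 18, 2, 2, 8 and 99 in Myog-negative cells. The log2 ratio of Il12a was 0.996 in old replicate 3, which held most of its UMIs, and 1.77 to 5.14 in the other samples. Il1bos overlaps Il1b on the opposite strand. The lists are read beside the 17.3% of all genes called lower and 14.3% called higher. In the list of receptors 7 of 35 fell, among them Il18rap (-1.003 ± 0.16, adjusted p = 0.0068) and Il1rap (-0.97 ± 0.18, adjusted p = 0.0092), and 2 rose, Il17rc and Il6st. In the list of other cytokines 8 of 17 fell, among them Kitl (-1.10 ± 0.11, adjusted p = 0.0020), the ligand of the stem cell receptor Kit, and 2 rose, Ctf1 and Xcl1. In the NF-kappaB list 6 of 26 fell, among them Ptgs2, which makes prostaglandins, and 5 rose, among them Sod2, a mitochondrial antioxidant enzyme. Of the marker lists, 4 of 10 myogenic genes rose, 1 of them Myog itself, which defined the classes, and 2 fell, 2 of 4 macrophage and monocyte genes (Cd14 and Csf1r) and 2 of 5 fibro-adipogenic genes (Smoc2 and Pdgfra) fell, the 1 B cell gene tested (Cd79a, at most 0.30 CPM in a sample) rose by 2.01 on the log2 scale (adjusted p = 0.0103), and their part in the result was not tested. Median depth was 11073 to 20598.5 UMIs in the Myog-positive and 12901 to 19702 UMIs in the Myog-negative cells of these 5 samples.

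Cycling cells had higher levels of Cxcl10, Cxcl12 and Ccl2 and lower levels of Il1b, Il18, Ccl8 and Ccl25. Cells with 2 or more UMIs over Mki67, Top2a, Cdk1 and Cenpf, genes of dividing cells, were compared with cells that had none within all 6 samples. Of 24 cytokine genes tested 3 rose and 4 fell, or 12.5% and 16.7%, while 21.8% and 26.4% of the 13359 genes tested were called higher and lower. Cxcl10 was at 4.43, 1.31, 0.25, 10.1, 2.62 and 1.84 CPM in the cycling cells of young replicates 1 to 3 and old replicates 1 to 3 and at 1.29, 0.16, 0, 1.40, 0.23 and 0.35 CPM in the non-cycling cells. It rose by 2.58 ± 0.23 on the log2 scale (edgeR adjusted p = 1.17e-05), higher in 6 of 6 samples, and the call held under all 11 alternatives. Few cells with many UMIs carried part of this: 28 cells with 10 or more Cxcl10 UMIs held 69.1% of the Cxcl10 UMIs of old replicate 1, and 96.4% of them were cycling. Without such cells Cxcl10 remained higher in the cycling cells of 6 of 6 samples, at 0.24 to 2.99 CPM against 0 to 1.40 CPM, but by less: old replicate 1 was at 2.99 against 1.40 CPM, and old replicate 3 at 0.47 against 0.34 CPM. In thinned cells 0.11% to 1.41% of cycling and 0% to 0.37% of non-cycling cells had a Cxcl10 UMI; young replicate 3 had 0 of 776 non-cycling cells, which allows up to 0.387% of cells with a UMI (3 cells of the total; the exact interval reaches 0.474%). Cycling cells were the deeper cells in every sample, by median 15828 against 11052 UMIs in young replicate 1. Cxcl10 did not rise steadily with the summed UMIs of the 4 genes of dividing cells. From cells with 10 to 19 of these UMIs to cells with 20 or more, Cxcl10 fell in young and old replicates 1 and 3. In old replicate 1 it went from 18.1 to 8.09 CPM. It rose in young and old replicate 2, in the latter from 1.93 to 5.07 CPM. Of the 10 myogenic markers 7 fell in the cycling cells and 0 rose, and of the 4 macrophage and monocyte markers tested 1 rose (Cd14) and 1 fell (Cd68). Of the 4 smooth muscle and pericyte markers tested 2 rose and 2 fell, and of the 5 fibro-adipogenic markers tested 1 fell (Gsn). The part of these markers in the result was not tested.

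Cxcl12 rose by 0.28 ± 0.06 (adjusted p = 0.0028), from 69.9 CPM in non-cycling to 83.8 CPM in cycling cells of young replicate 1. Its means over samples were 78.0 CPM in non-cycling and 91.6 CPM in cycling cells. Old replicate 1 hardly differed, at 37.0 and 37.4 CPM. Ccl2 rose by 0.51 ± 0.17 (adjusted p = 0.0416), but was lower in the cycling cells of young replicate 3 and lost its call in 8 of 11 alternatives; without the deepest cells it was 0.31, with an adjusted p of 0.34. Il1b fell by 1.71 ± 0.29 (adjusted p = 0.0012), Il18 by 0.49 ± 0.09 (adjusted p = 0.0010) and Ccl8, a monocyte attractant, by 0.73 ± 0.17 (adjusted p = 0.0058). Ccl25 fell by 0.23 ± 0.06 (adjusted p = 0.0101), a small difference that was found in 6 of 6 samples. These lists, too, stand beside the 21.8% of all genes called higher and 26.4% called lower. In the receptor list 3 of 35 rose, led by Il1rl1 (1.00 ± 0.16, adjusted p = 0.00051), and 5 fell, among them Cxcr4 (-0.77 ± 0.22, adjusted p = 0.0242). In the list of other cytokines 4 of 17 rose, among them Kitl and Tnfsf9, and 3 fell, among them Ctf1; in the NF-kappaB list 4 of 26 rose and 4 fell. Whether the differences by class depended on age was tested with an interaction term, which edgeR called for 0 genes with either class. At an unadjusted p under 0.05 it gave 4 of 25 cytokine genes and 478 genes in all for Myog, and 2 of 24 and 398 for cycling.

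**Figure D5:**
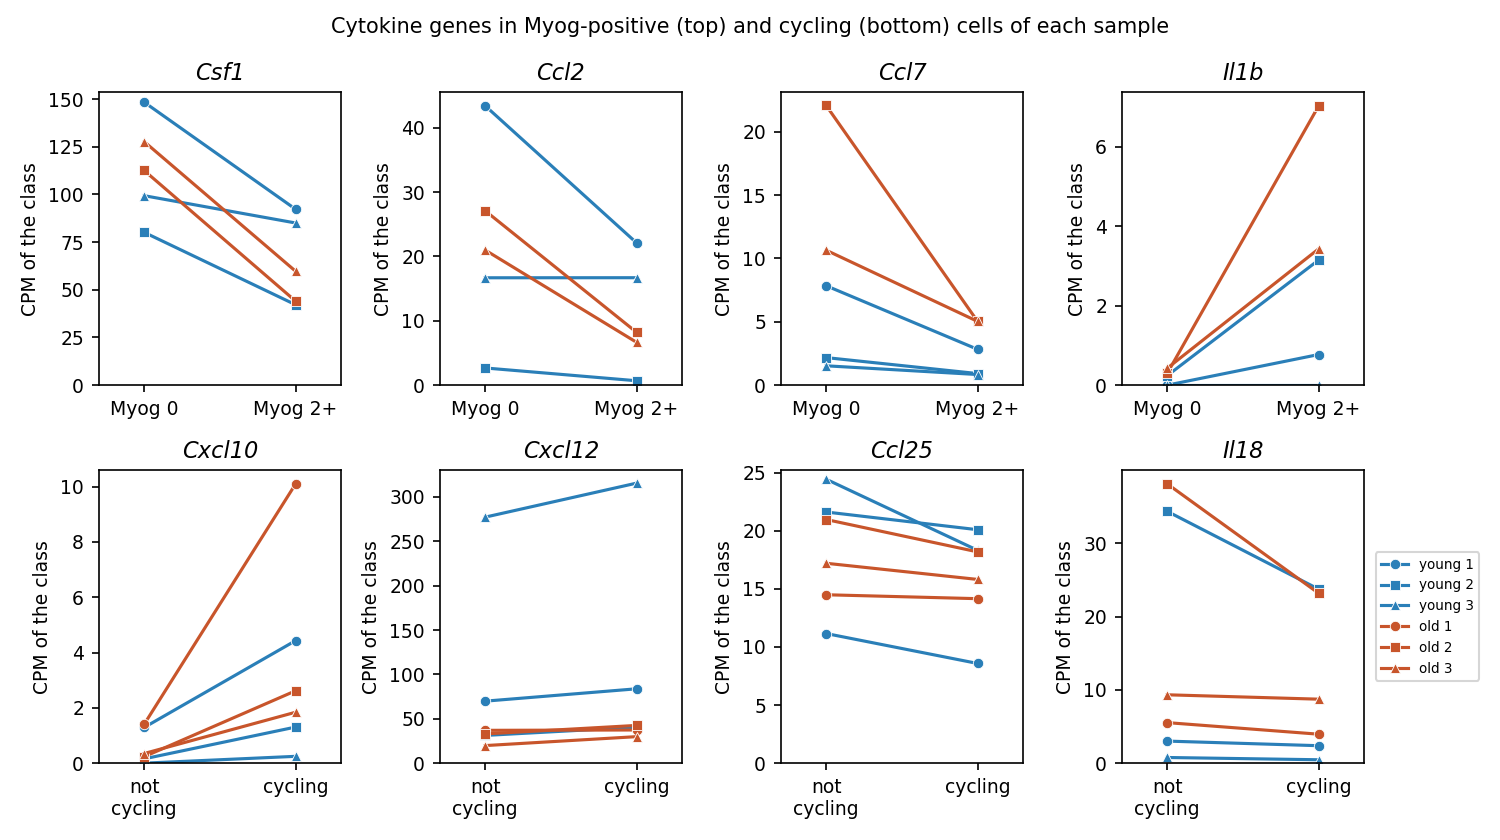
CPM of 8 cytokine genes in the 2 cell classes of each sample, joined by a line (blue young, red old; axes from 0); the top row compares Myog-negative with Myog-positive cells in 5 samples, the bottom row non-cycling with cycling cells in 6. Csf1 and Ccl7 lines descend and the Il1b lines ascend, apart from young replicate 3 at 0; Cxcl10 ascends in all 6 samples, while Ccl25 and Il18 descend.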

How the data were processed

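The authors deposited, per sample, raw UMI counts per gene and cell barcode; these counts were whole numbers with no normalization, made with Cell Ranger 7.0.0 (young and old replicate 1, 21849 features) or 7.2.0 (the other 4 samples, 32285 features), per the file headers. The build was mm10, per the submitters' processing notes; the handling of introns and strand is not given in the sources used here. Counts were joined by Ensembl identifier (21485 shared genes, of which 1762 differ in symbol between the lists). These held 98.5% to 99.9% of each sample's UMIs.

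Of 62849 barcodes, the 61673 with at least 1000 UMIs, at least 500 genes and under 15% mitochondrial UMIs were analysed. No doublet caller was run; leaving out the deepest 8% of cells of a sample stood in for it. CPM is a gene's summed count in kept cells divided by the sample's UMIs on shared genes and scaled to a total of 1000000. The test on sums per sample used R 4.3.3 and edgeR 4.0.16 (TMM scaling, filterByExpr, robust quasi-likelihood test, two-sided, Benjamini-Hochberg adjustment over all genes tested, threshold 0.05), with terms for gene list and group; classes of cells with terms for sample and class, from samples with 50 or more cells in each class. Each SE is the log2 fold change over the root of the F statistic. DESeq2 1.42.0 was an alternative. The fits were also run on simulated counts that gave every gene the same dispersion. Those runs do not show how the fits behave on genes that vary more between samples. For shares of cells, cells were thinned to 5000 UMIs, which left out 1348 shallower cells; intervals are exact binomial (95%), and intervals and floors (3 counts) cover counting error only. Positions come from GENCODE vM21 (GRCm38).

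The genes and lists were chosen with earlier results of these data known. Genes were named if at 5 CPM or more in a sample, called in a comparison, or at 1 CPM or more in a sample without overlap of young and old; of the lists, up to 6 of the highest and those called. Cxcl3, Cxcl13, Gm17268, the genes leading the cells with many Ccl5 or Ccl2 UMIs, the receptors paired with ligands, the interferon-stimulated list (Isg15, Ifit1, Ifit3, Irf7, Rsad2, Oasl1, Oasl2, Usp18, Bst2, Ifi35 and Rtp4), the description of cells with 10 or more UMIs, the pairs of genes and the interaction terms were added after the data were seen. Marker lists not given in the report summed to 206 to 434 CPM (8 fibro-adipogenic genes), 13.4 to 88.0 CPM (5 smooth muscle and pericyte genes), 0.71 to 2.58 CPM (4 glial genes) and 0.06 to 2.19 CPM (5 neutrophil genes).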

Additional observations from a re-analysis of the deposited data

Results flagged for a closer look

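Cxcl11, an interferon-induced chemokine gene, is on the shorter gene list only and entered no comparison. It had 9 UMIs in old replicate 1 and 0 in young replicate 1, the 2 samples counted on that list; it was flagged as a signal outside the genes compared. The second entry named Ccl19 on the longer list had 0 UMIs in its 4 samples.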

How the results depend on the processing

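No cytokine gene was called by age under any of the 15 alternatives. Over all genes the count by age was 1, and it became 219 with DESeq2 (180 higher, 39 lower), 0 without a term for the gene list, 0 on the longer list only, and 0 to 3 with samples left out in turn. Replicate numbers did not pair the samples: correlations of deviations were 0.38, 0.22 and -0.08 for numbers 1, 2 and 3, and young replicate 2 correlated better with old replicate 3 (0.28). With the replicate block 1 gene and 0 cytokine genes were called, and the fold change became 0.95 for Ccl9 and 0.16 for Il7. Of 18 fold changes by age 12 kept their sign throughout and 6 reversed in 24 of 270 alternative values, none past the threshold. Il34 was -0.90 to 0.11 with samples left out, above 0 without young replicate 2. Ccl25 was -0.0106 without the list term, -0.0825 on the longer list and -0.0003 without the deepest cells, and -0.0827 to 0.0962 with samples left out. Cxcl1 was -0.46 on the longer list, -0.14 without the deepest cells, -0.0032 with chromosome shifts taken out, and -0.55 to 0.88 with samples left out. Il18 was -0.20 to 2.92 with samples left out. Ccl9 was 0.25 without the list term and -1.31 to 2.68 with samples left out. Il7 was 0.60 on the longer list and -0.86 to 0.60 with samples left out. The cause of these changes was not tested; where samples are left out, fewer samples enter, and where a group keeps 2 samples its spread is shared with the other. For Myog, 0 of 11 fold changes reversed and 7 lost their call in 21 of 110 values. Calls over all genes ranged from 1813 to 4545 and over cytokine genes from 5 to 12 with samples left out. For cycling, 0 of 7 reversed over 77 values, and 1 lost its call: Ccl2, in 8 of its 11 alternatives. With RLE scaling the calls over all genes split into 2682 higher and 4000 lower, against 2914 and 3528. The 7 genes at 1 CPM in all samples stayed at that number under each of the 3 alternatives run. Shares of cells rose without thinning, apart from Il1b in young replicate 3, which had no UMI. At 2000 UMIs they fell, except for some shares near 0. Those of Cxcl16 in young replicate 2 (0.0094% to 0.0279%) and of Il12a in old replicate 1 (0.0101% to 0.0198%) rose, and shares at 0 stayed at 0. Depth limits the 39 genes under 1 CPM, most of which could not be tested.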

Other observations

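Cytokine genes between 1 and 5 CPM that the comparisons did not single out also varied by population. Il17d was at 0.88 to 2.39 CPM in all 6 samples. Il11, a cytokine of the interleukin-6 family, was at 0.28 to 3.07 CPM and was highest in old replicate 1. Il15, known as a muscle-derived cytokine, was at 0.52, 0.23 and 1.58 CPM in the young samples against 1.57, 1.76 and 1.54 CPM in the old ones. Ccl17, a T cell attractant, reached 3.57 CPM in young replicate 1 and 0.13 CPM in old replicate 2. Cxcl13, a B cell attractant, had 221 of its 279 UMIs in old replicate 3, and Il27 had 212 of 285 in old replicate 1. For Il11, Ccl17 and Il27, and also for Il7, the 2 highest samples were young replicate 1 and old replicate 1, those on the shorter gene list. This did not hold for Il17d, Il15 or Cxcl13, and whether these levels follow the gene list was not tested.

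Outside the family, 14 of 31 other cytokine genes reached 1 CPM in any sample. Spp1, which encodes osteopontin, was at 955 to 9390 CPM and Mif at 785 to 1994 CPM, above every cytokine gene of the family in every sample. Gdf15, a stress-induced cytokine, belongs to the NF-kappaB and inflammatory response list and not to these 31 genes. It was at 42.5, 2.06 and 4.03 CPM in the young replicates and 29.9, 211 and 47.4 CPM in the old replicates. Grem1, a secreted BMP antagonist, ranged from 0.13 CPM in young replicate 2 to 453 CPM in young replicate 1. None of these 4 was called by age with edgeR. Ccl27a, a chemokine whose symbol the naming rule does not take, was chosen after its values were seen: it measured 0.35, 0.96 and 0.22 CPM in the young samples against 1.74, 10.2 and 12.1 CPM in the old ones, without overlap (log2 fold change 3.53 ± 0.89, edgeR unadjusted p = 0.0083, adjusted p = 1.00). Il11ra1, a receptor gene whose end overlaps that of Ccl27a on the opposite strand, measured 1.95, 2.24 and 0.58 CPM against 3.36, 11.2 and 12.6 CPM, and reads shared by the 2 genes were not examined.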
